A study of Mus musculus with 6 samples.

Results

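The genes described here are 33 synaptic adhesion molecules and leucine-rich repeat organizers, taken by symbol from a table of 21286 genes; all 33 were found in it. They fall into 10 families: neurexins (Nrxn2, Nrxn3), neuroligins (Nlgn1 to Nlgn3), LRRTM (Lrrtm1 to Lrrtm4), SLITRK (Slitrk1 to Slitrk6), FLRT (Flrt1 to Flrt3), teneurins (Tenm1 to Tenm4), LINGO (Lingo1 to Lingo3), ELFN (Elfn1, Elfn2), the netrin-G ligand (NGL) family (Lrrc4, Lrrc4b, Lrrc4c) and LRRN (Lrrn1 to Lrrn3). A family here means these listed genes only, also where shares of a family are given, and other genes of a family were not examined. Their expression was read from RNA-seq of mouse lateral ganglionic eminence (LGE) at embryonic day 16.5, with 3 libraries of Dlx1/2 -/- mutants and 3 of wild type littermates. The LGE is the embryonic ventral forebrain region that makes striatal projection neurons and olfactory bulb interneurons, and Dlx1 and Dlx2 are homeobox factors of its progenitors and young neurons. Both groups were on a mixed background of C57BL/6J, 129S6 and CD1, and the tissue was dissected and frozen before RNA extraction. The labels do not say which parts of Dlx1 and Dlx2 the alleles remove, nor whether every library stems from a different embryo. Each group held both Xist-high and Y-positive libraries (values below), so neither group was a single embryo sequenced 3 times; the p-values rest on the variation among these libraries, part of which may be technical.

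Synaptic organizers are membrane proteins that reach across the cleft between neurons, bind partners on the other side and gather the release or receptor machinery there. Presynaptic neurexins bind postsynaptic neuroligins and LRRTM proteins, SLITRK proteins and Lrrc4b bind receptor phosphatases of the LAR type, and teneurins and FLRT proteins bind the latrophilins. Before synapses form, several of these proteins act in cell migration and axon guidance, FLRT proteins through Unc5 receptors for example. Olfactory bulb interneurons leave the LGE by migration, and striatal neurons settle beside it.

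Promoter windows of 27 of the 33 members were at hand from RefSeq (GRCm38.p6), 36 windows of 300 bases. Most of each window lies before a start listed for the gene, and its last 50 bases after it. A gene can have more than 1 such start, and some lie inside the gene. The sequences are shown because homeodomain factors, among them the Dlx proteins, are known to prefer sites with the core TAATTA, which reads the same on both strands. This core stood in 3 of the 36 member windows (8.33%), against 1738 of all 32851 windows (5.29%). The 3 windows that hold it, with the core in capitals, are shown with that of Flrt2, a strongly lowered member whose window has no match.
Tenm3 (chr8:48674641-48674940, minus strand): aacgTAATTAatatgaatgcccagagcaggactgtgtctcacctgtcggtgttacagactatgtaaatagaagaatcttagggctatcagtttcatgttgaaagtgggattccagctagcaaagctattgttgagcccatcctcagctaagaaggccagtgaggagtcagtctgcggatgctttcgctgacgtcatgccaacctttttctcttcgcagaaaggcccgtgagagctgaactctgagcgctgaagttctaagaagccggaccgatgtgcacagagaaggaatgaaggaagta
Lingo2 (chr4:35845155-35845454, minus strand): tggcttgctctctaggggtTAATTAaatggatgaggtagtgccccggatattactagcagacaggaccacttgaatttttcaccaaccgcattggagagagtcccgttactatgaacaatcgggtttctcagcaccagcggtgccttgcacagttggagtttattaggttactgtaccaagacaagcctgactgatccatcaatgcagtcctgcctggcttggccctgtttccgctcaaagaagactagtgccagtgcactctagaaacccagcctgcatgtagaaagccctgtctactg
Lrrc4 (chr6:28831698-28831997, minus strand): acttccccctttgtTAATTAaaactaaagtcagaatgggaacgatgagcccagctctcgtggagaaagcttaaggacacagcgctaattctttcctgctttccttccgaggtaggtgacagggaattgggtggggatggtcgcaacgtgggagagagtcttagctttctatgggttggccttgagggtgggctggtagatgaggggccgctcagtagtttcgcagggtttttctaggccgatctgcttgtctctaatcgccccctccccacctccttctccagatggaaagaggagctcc
Flrt2 (chr12:95691976-95692275, plus strand): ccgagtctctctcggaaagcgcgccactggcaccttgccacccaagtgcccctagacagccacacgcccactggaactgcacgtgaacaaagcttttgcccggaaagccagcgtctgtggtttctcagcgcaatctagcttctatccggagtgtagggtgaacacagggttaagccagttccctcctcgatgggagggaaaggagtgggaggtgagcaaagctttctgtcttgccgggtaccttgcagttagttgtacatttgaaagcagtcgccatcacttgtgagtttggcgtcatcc
Tenm3 and Lingo2 were lower in the mutant and Lrrc4 did not pass the test. The core was in 2 of 18 windows of lowered members and in 1 of 18 windows of the other members. The printed Tenm3 window lies inside the span of its gene in GENCODE M21, 48227682 to 48843951. The printed Lingo2 window likewise lies inside its gene, 35706647 to 36951747. Neither is thus at the outermost start of its gene in that annotation, and the other Lingo2 window has no match. A match is only a match of letters, and these windows leave out distant elements.

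The libraries held 10711630 to 16588359 counts. Levels are given in CPM, the count scaled to the library's total after TMM normalization, and 3 counts correspond to 0.181 to 0.287 CPM in a library. The targeted genes were low in each mutant library: Dlx2 averaged 16.8 ± 1.68 CPM in the mutant and 436 ± 29.8 CPM in wild type, and Dlx1 averaged 122 ± 14.4 CPM in the mutant and 858 ± 35.7 CPM in wild type (SD, n = 3 each). Mutant replicate 3 and wild type replicate 1 held 4582 and 4028 CPM of Xist and at most 0.126 CPM of the Y-linked Kdm5d, whereas the other 4 libraries held at most 9.63 CPM of Xist and 91.7 to 99.5 CPM of Kdm5d. Of the tested marker genes, 13 of 14 for striatal projection neurons were lower and none higher, with summed levels of 729 to 801 CPM in the mutant and 2259 to 2360 CPM in wild type. For olfactory bulb interneurons 11 of 13 were lower and none higher (summed 1107 to 1192 CPM in the mutant, 2688 to 2877 CPM in wild type). For progenitors and radial glia 7 of 14 were higher and none lower, for pallial glutamatergic neurons 6 of 9, and for hypothalamic and ventral neurons 5 of 5, whose sum was 588 to 659 CPM in the mutant and 2.73 to 4.29 CPM in wild type. Most of that sum was Otp, at 446 CPM in the mutant and 0.558 CPM in wild type, and Ebf3, at 156 CPM in the mutant and 1.89 CPM in wild type. General neuronal genes moved both ways, 4 of 11 higher and 5 lower, as did those of medial ganglionic eminence interneurons, 3 of 9 each way. Among other cell types, 2 of 6 genes of oligodendrocyte precursors, 3 of 7 of the astrocyte lineage and 2 of 7 of red cells were higher with none lower, 1 of 8 endothelial and mural genes was higher and 1 lower, and none of 8 microglial genes passed in edgeR (3 had an unadjusted p below 0.05, and the smallest adjusted p was 0.0515, for C1qa). Over all tested genes 11.2% were called higher and 12.8% lower, and counts such as 2 of 6 or 2 of 7 rest on few genes. In bulk tissue, fewer cells of a type and less RNA per cell cannot be told apart, and the part of these marker shifts in the members' changes was not tested.

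Of the tested organizers 16 of 32 changed, and 14 of those were lower in the Dlx1/2 -/- mutant. A gene is called where the adjusted p of edgeR's quasi-likelihood test over all 15326 genes tested is below 0.05. Of the 33 members, 32 had enough counts to be tested, and 14 of them were lower, 2 higher and 16 not called. That is 43.8% of tested members lower and 6.25% higher, where 12.8% of all tested genes were lower and 11.2% higher, and 24.0% were called in all. A fall of at least 2-fold was seen in 10 members, or 31.2% of those tested, against 4.04% of all tested genes, and no member rose 2-fold, as 2.84% of all tested genes did. The 3 mutant libraries lay wholly to one side of the 3 wild type libraries in 19 members (59.4%), where 41.9% of all tested genes did so. The median log2 fold change was −0.13 over the tested members and 0.00 over all tested genes. As the members were chosen with earlier results of these data known, these rates only describe them. In the authors' deposited table, 18 of the 33 members had a p-value below 0.05, the 16 called here among them.

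**Figure D1:**
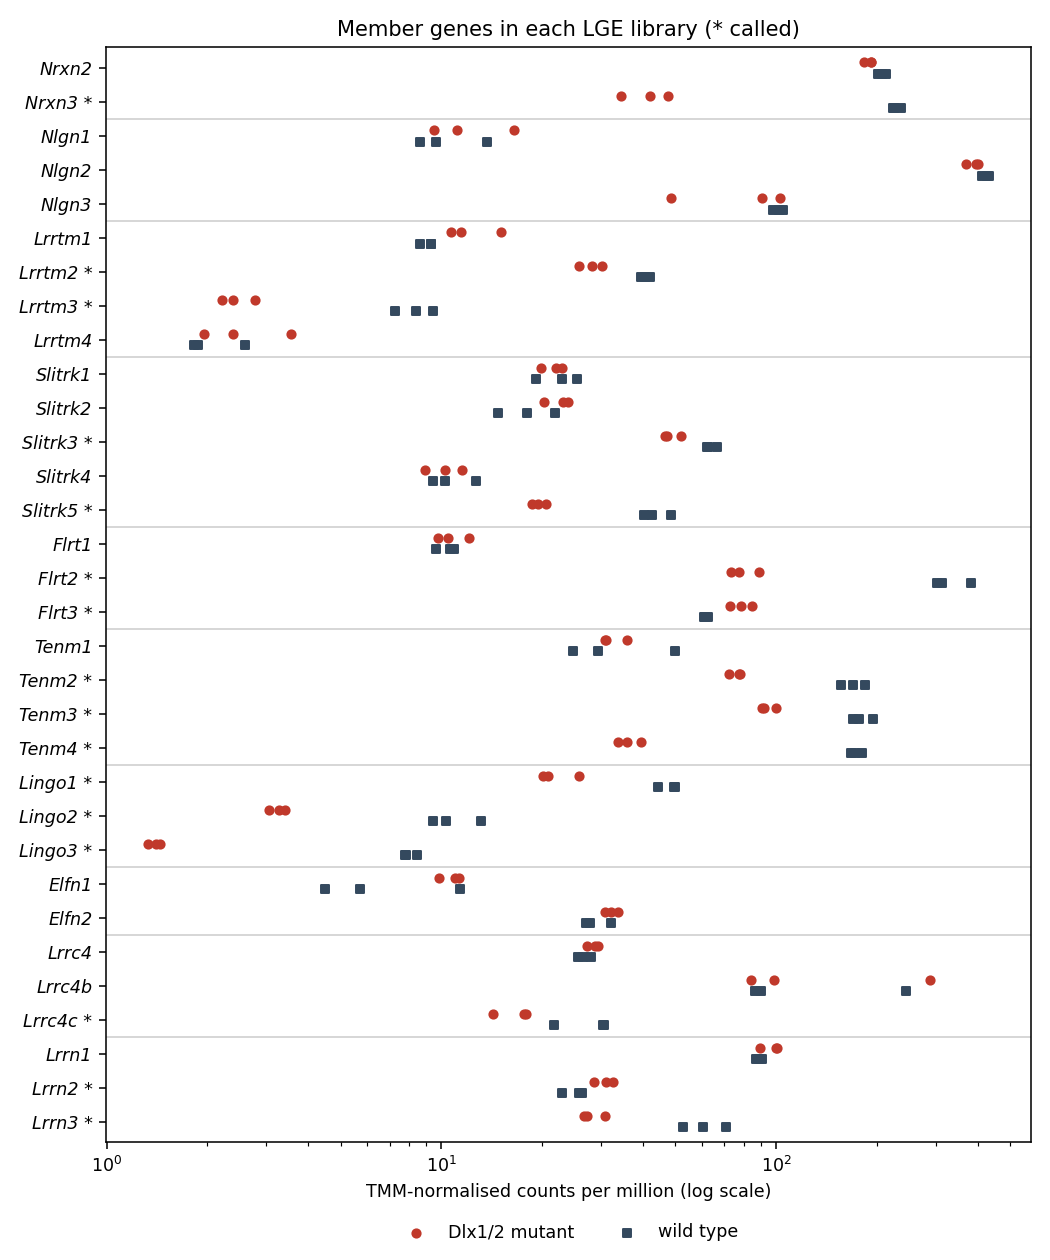
CPM of the 32 tested members in each library, on a log scale; red circles are the 3 mutant libraries and dark squares the 3 wild type libraries, grey lines part the families, and an asterisk marks a called gene. Nrxn3, Flrt2, Tenm4 and Lingo3 show wide gaps between the groups, while the groups of Nrxn2 and Nlgn2 lie close together.

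The neurexins, the presynaptic hub of these complexes, parted from each other. Nrxn3 (chromosome 12, 88722876 to 90334935, plus strand, GRCm38) had 42.1, 47.5 and 34.4 CPM in mutant replicates 1 to 3, against 236, 224 and 226 CPM in wild type replicates 1 to 3. The groups were far apart, a log2 fold change of −2.47 ± 0.14 (SE) or 5.52-fold lower, with adjusted p = 3.51e-06. Nrxn2 (chromosome 19) had 193, 184 and 192 CPM in the mutant and 207, 214 and 201 CPM in wild type. Its groups did not overlap either, but the difference was small, −0.13 ± 0.03 on the log2 scale, and was not called (adjusted p = 0.0711). Per length, in the FPKM that the authors deposited, Nrxn3 took 17.2 ± 2.61% of the summed level of both genes in the mutant and 51.2 ± 1.13% in wild type (SD, n = 3 each; two-sided exact permutation test p = 0.1, the smallest that 3 against 3 libraries allow).

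The neuroligins, postsynaptic receptors of neurexins, gave no call. Nlgn2, the form known from inhibitory synapses, had the highest level per length of all members in both groups, 54.2 ± 2.17 FPKM in the mutant and 58.0 ± 2.20 FPKM in wild type. Its log2 fold change was −0.12 ± 0.04 (adjusted p = 0.112), with groups that did not overlap. Nlgn1, the form known from excitatory synapses, averaged 12.4 ± 3.68 CPM in the mutant and 10.6 ± 2.70 CPM in wild type, and its groups overlapped. Nlgn3 on the X chromosome had 103, 48.4 and 90.9 CPM in the mutant and 98.1, 105 and 102 CPM in wild type. Mutant replicate 2 was low by itself, and in that library Gm21986, a transcript on the same strand whose exons cover 41.2% of the exon bases of Nlgn3, had 53.1 CPM, against 4.75 and 3.14 CPM in the other mutant libraries and 3.25 to 3.83 CPM in wild type. The sum of both genes was 108, 101 and 94.1 CPM in the mutant and 101, 109 and 105 CPM in wild type, with a log2 fold change of −0.06 (adjusted p = 0.569), against −0.33 for Nlgn3 alone (adjusted p = 0.353).

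The LRRTM genes, which encode postsynaptic leucine-rich repeat proteins that bind neurexins or glypicans, split by member. Lrrtm3 (chromosome 10) had 2.38, 2.21 and 2.77 CPM in the mutant and 8.42, 7.28 and 9.41 CPM in wild type, 3.41-fold lower (log2 fold change −1.77 ± 0.14, adjusted p = 1.98e-04). Lrrtm2 had 30.2, 28.1 and 25.8 CPM in the mutant and 42.1, 39.6 and 40.6 CPM in wild type. Both genes had groups that did not overlap, and the change of Lrrtm2 was the smaller, −0.54 ± 0.07 (adjusted p = 0.00201). Lrrtm1 had 10.7, 15.1 and 11.4 CPM in the mutant and 8.61, 9.29 and 9.29 CPM in wild type, without overlap. Its log2 fold change of 0.45 ± 0.16 was not called (adjusted p = 0.0617), although it was 0.55 with adjusted p = 0.0498 without mutant replicate 1. Lrrtm4, a rare member at 2.63 ± 0.823 CPM in the mutant and 2.09 ± 0.427 CPM in wild type, overlapped between groups. Of the summed FPKM of the family, Lrrtm1 held 20.6 ± 3.24% in the mutant and 10.9 ± 0.743% in wild type, and Lrrtm3 held 4.93 ± 0.892% in the mutant and 12.01 ± 1.26% in wild type (exact permutation p = 0.1 each).

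Of the SLITRK genes, whose products bind presynaptic receptor phosphatases and regulate neurite growth, 2 of 5 tested were lower. Slitrk5 (chromosome 14, 111675097 to 111683141, plus strand), a member known for its role in corticostriatal circuits, had 18.6, 20.6 and 19.5 CPM in the mutant and 40.2, 42.6 and 48.5 CPM in wild type. No libraries overlapped, and the gene was 2.24-fold lower (log2 fold change −1.16 ± 0.09, adjusted p = 7.10e-05). Slitrk3, which promotes inhibitory synapses, had 51.9, 46.5 and 47.2 CPM in the mutant and 66.8, 62.8 and 62.1 CPM in wild type, a smaller difference of −0.40 ± 0.06 (adjusted p = 0.00466). Slitrk1, Slitrk2 and Slitrk4 had overlapping groups and log2 fold changes of −0.05, 0.31 and −0.08. Slitrk2 was called without wild type replicate 1, at 0.45 with adjusted p = 0.0442. Slitrk6, known from the inner ear, was not tested for want of reads, with 6, 8 and 11 counts in the mutant and 2, 7 and 10 counts in wild type. The share of Slitrk5 in the summed FPKM of the family was 22.5 ± 1.49% in the mutant and 36.7 ± 3.25% in wild type (exact permutation p = 0.1).

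The FLRT genes encode fibronectin leucine-rich transmembrane proteins that bind latrophilins and Unc5 receptors, and 2 of them moved in opposite directions. Flrt2 (chromosome 12, 95692226 to 95785215, plus strand), whose promoter window is printed above, had 89.2, 77.7 and 73.3 CPM in the mutant and 382, 314 and 303 CPM in wild type. It was thus 4.16-fold lower, with every mutant library far below every wild type library (log2 fold change −2.06 ± 0.13, adjusted p = 8.05e-06). Flrt3 (chromosome 2) had 78.4, 73.1 and 84.6 CPM in the mutant and 61.4, 61.1 and 62.8 CPM in wild type. Its groups did not overlap, and it rose by 0.35 ± 0.06 on the log2 scale (adjusted p = 0.00793), a call that held in all 11 other fits, which changed the scaling, filter, tool, covariates or libraries. Flrt1, at 10.8 ± 1.19 CPM in the mutant and 10.4 ± 0.658 CPM in wild type, was not called. The order per length was thus turned round: Flrt2 made up 39.5 ± 3.50% of the family's FPKM in the mutant and 76.8 ± 2.19% in wild type, and Flrt3 made up 51.1 ± 2.66% in the mutant and 18.9 ± 1.93% in wild type (exact permutation p = 0.1 each). Among the 33 members, Flrt2 ranked 7 by FPKM in the mutant and 3 in wild type.

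The teneurins, large transmembrane proteins that match connecting neurons with each other and bind latrophilins, had 3 of 4 members lower. Tenm4 (chromosome 7, 96171246 to 96911093, plus strand) had 39.5, 33.6 and 35.9 CPM in the mutant and 167, 172 and 181 CPM in wild type. With 4.77-fold less in the mutant and little spread in either group, it had the smallest adjusted p of all members in edgeR, 9.35e-07 (log2 fold change −2.25 ± 0.08). Tenm2 (chromosome 11) had 77.5, 78.1 and 72.1 CPM in the mutant and 156, 185 and 170 CPM in wild type, a log2 fold change of −1.16 ± 0.08 (adjusted p = 1.92e-05). Tenm3 (chromosome 8), whose window with the TAATTA core is printed above, had 90.5, 91.8 and 100.1 CPM in the mutant and 177, 170 and 195 CPM in wild type, −0.94 ± 0.07 (adjusted p = 4.28e-05). The groups of these genes did not overlap. Tenm1, on the X chromosome, had 36.0, 30.8 and 31.0 CPM in the mutant and 24.7, 29.4 and 49.97 CPM in wild type. The wild type libraries were spread on both sides of the mutant ones, and the gene was not called. Tenm4 made up 8.56 ± 0.618% of the family's FPKM in the mutant and 18.7 ± 0.409% in wild type, while Tenm3 made up 45.4 ± 2.42% in the mutant and 39.9 ± 2.05% in wild type (exact permutation p = 0.1 each).

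All 3 listed LINGO genes were lower, the one family in which every listed member was called in the same direction. These genes encode leucine-rich repeat and immunoglobulin proteins, of which Lingo1 acts with the Nogo receptor to hold back axon growth and myelination. Lingo3 (chromosome 10, 80832801 to 80844039, minus strand) had 1.40, 1.33 and 1.45 CPM in the mutant and 7.84, 7.80 and 8.45 CPM in wild type. It was 5.74-fold lower (log2 fold change −2.52 ± 0.05, adjusted p = 1.74e-05), at a low level of 21 to 23 counts in each mutant library. The change of Nrxn3, −2.47 ± 0.14, reached that of Lingo3 within its own larger error. Without mutant replicate 2 Nrxn3 was past Lingo3, at −2.58 against −2.49. Lingo2 (chromosome 4) had 3.05, 3.42 and 3.27 CPM in the mutant and 9.47, 10.3 and 13.1 CPM in wild type, 3.39-fold lower (adjusted p = 1.65e-04). Lingo1 (chromosome 9), the most abundant of the family per length in both groups, had 20.1, 25.7 and 20.8 CPM in the mutant and 44.3, 49.6 and 49.97 CPM in wild type, 2.16-fold lower (adjusted p = 2.15e-04). In each of the genes the mutant libraries all lay below the wild type libraries. Since Lingo3 was the more deeply lowered, Lingo1 made up 80.8 ± 2.14% of the family's FPKM in the mutant and 65.1 ± 1.39% in wild type (exact permutation p = 0.1).

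The ELFN genes, whose products recruit metabotropic glutamate receptors across the synapse, were not called. Elfn1, known from synapses onto somatostatin interneurons, had 10.97, 11.3 and 9.81 CPM in the mutant and 4.50, 5.72 and 11.3 CPM in wild type. Wild type replicate 3 stood at the level of the mutant libraries, and without it the log2 fold change was 1.05 with adjusted p = 0.00482, against 0.54 ± 0.40 with adjusted p = 0.234 with it. Elfn2 averaged 32.2 ± 1.48 CPM in the mutant and 28.9 ± 2.73 CPM in wild type. Its groups overlapped.

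Among the NGL genes, postsynaptic ligands of the netrin-G proteins and of LAR type phosphatases, Lrrc4c was lower. Lrrc4c (chromosome 2), which encodes NGL-1, the ligand of netrin-G1, had 17.7, 17.8 and 14.2 CPM in the mutant and 21.7, 30.7 and 30.4 CPM in wild type, a log2 fold change of −0.74 ± 0.20 (adjusted p = 0.0104). Lrrc4, which encodes NGL-2, was at 28.5 ± 1.05 CPM in the mutant and 26.7 ± 1.16 CPM in wild type and was not called. Lrrc4b (chromosome 7, 44429018 to 44463351, plus strand), which encodes NGL-3, had 84.3, 288 and 98.9 CPM in the mutant and 90.4, 245 and 86.6 CPM in wild type. In each group the library numbered 2 held over 2 times the level of each other library, and of 15326 tested genes Lrrc4b was the only 1 with at least 5 CPM that did so in both groups for the library numbered 2, while 3 genes did so for number 1 and 0 for number 3. Tested neighbours had no such step in the library numbered 2: Syt3 had 5.30, 5.32 and 4.34 CPM in the mutant and 5.93, 7.41 and 9.90 CPM in wild type, and Josd2 had 16.5, 17.1 and 15.7 CPM in the mutant and 12.8, 14.3 and 15.3 CPM in wild type. The log2 fold change of Lrrc4b was 0.16 ± 0.74 (adjusted p = 0.870), −0.62 without mutant replicate 2 and 0.83 without wild type replicate 2, so even its sign rested on single libraries.

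**Figure D2:**
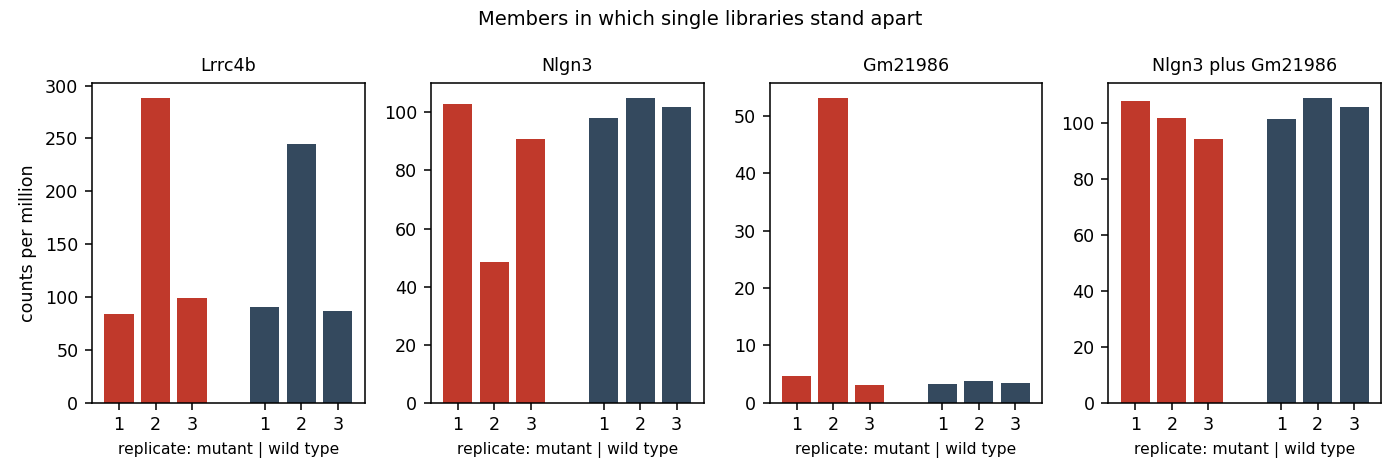
CPM of Lrrc4b, Nlgn3, the overlapping transcript Gm21986 and the sum of Nlgn3 and Gm21986, as 1 bar per library, red for mutant replicates 1 to 3 and dark for wild type replicates 1 to 3. Lrrc4b is high in the library numbered 2 of both groups, and the low Nlgn3 value of mutant replicate 2 meets a high value of Gm21986, with an even sum.

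The LRRN genes, neuronal leucine-rich repeat proteins related to the Drosophila cell recognition protein Capricious, again parted. Lrrn3 (chromosome 12, 41451668 to 41486431, minus strand) had 30.9, 26.8 and 27.2 CPM in the mutant and 52.7, 60.6 and 71.0 CPM in wild type, 2.17-fold lower without overlap (log2 fold change −1.12 ± 0.14, adjusted p = 3.10e-04). Lrrn2 (chromosome 1) had 32.6, 28.6 and 31.1 CPM in the mutant and 22.9, 25.7 and 26.3 CPM in wild type. It was called higher at 0.30 ± 0.08 (adjusted p = 0.0443), but the call was lost on leaving out any 1 of the 6 libraries (adjusted p of 0.056 to 0.133). Lrrn1, the most abundant of the family per length at 26.3 ± 1.88 FPKM in the mutant and 23.8 ± 0.599 FPKM in wild type, was not called. Lrrn3 made up 20.9 ± 0.921% of the family's FPKM in the mutant and 38.9 ± 2.98% in wild type (exact permutation p = 0.1).

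**Figure D3:**
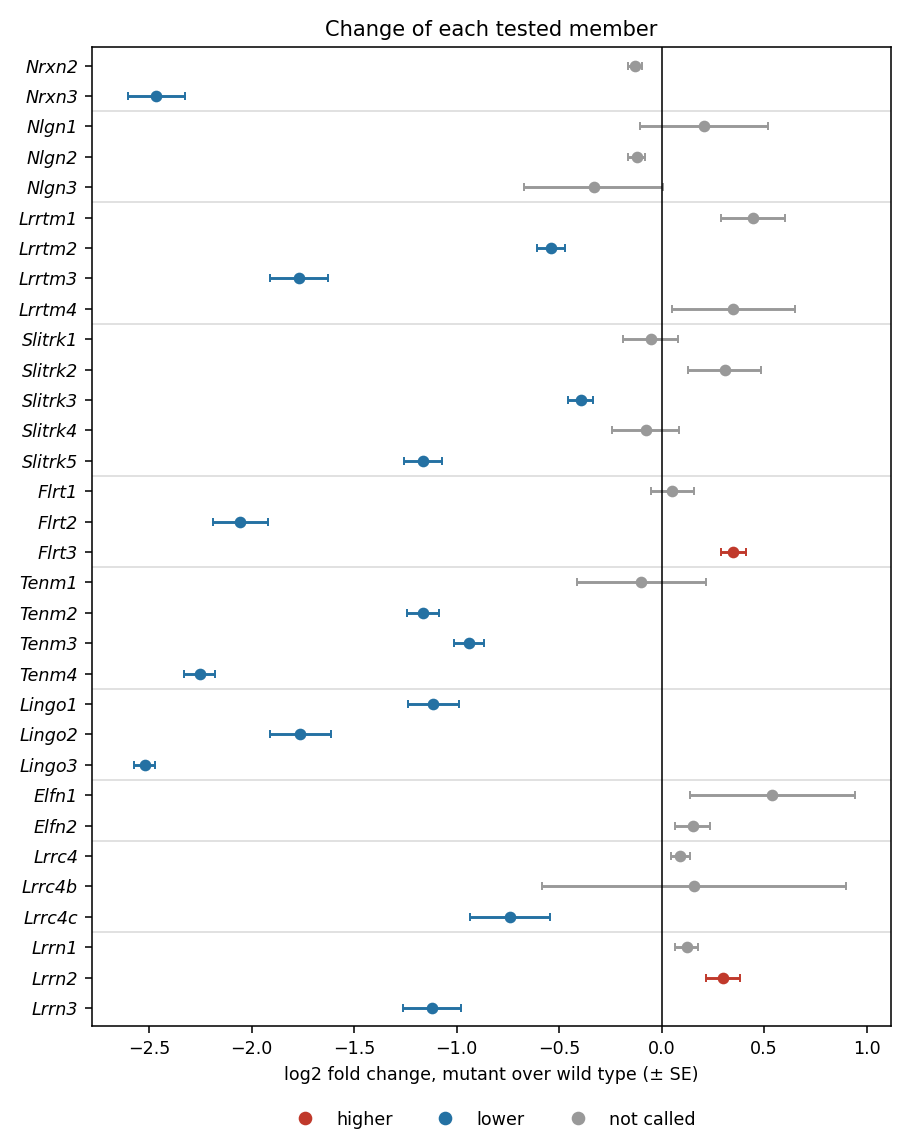
Log2 fold change of each tested member, mutant over wild type, with its standard error over 3 libraries a group; blue is lower, red higher and grey not called, and grey lines part the families. The 14 lowered members run from −2.52 for Lingo3 to −0.40 for Slitrk3, and both raised members lie below 0.5.

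In 7 of 10 families at least 1 listed member was called lower while another was not called or was higher. Only the listed LINGO genes were called lower throughout. The mutant and wild type shares did not overlap for 20 of the 33 members, none of them neuroligin, ELFN or NGL genes. Nrxn2, Lrrtm1, Lrrtm4, Slitrk1, Slitrk2, Flrt1, Tenm1 and Lrrn1 are among them, though their own levels were not called. A share also moves with the other members of its family, so this is not a count of changed genes. The exact permutation p of such a share cannot go below 0.1, and the shares of a family add up to its whole, so they are not independent. These shares use the deposited FPKM, whose implied gene lengths were 0.597 to 2.90 times the joined exon length in GENCODE M21, so shares within a library depend on lengths that could not be traced.

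**Figure D4:**
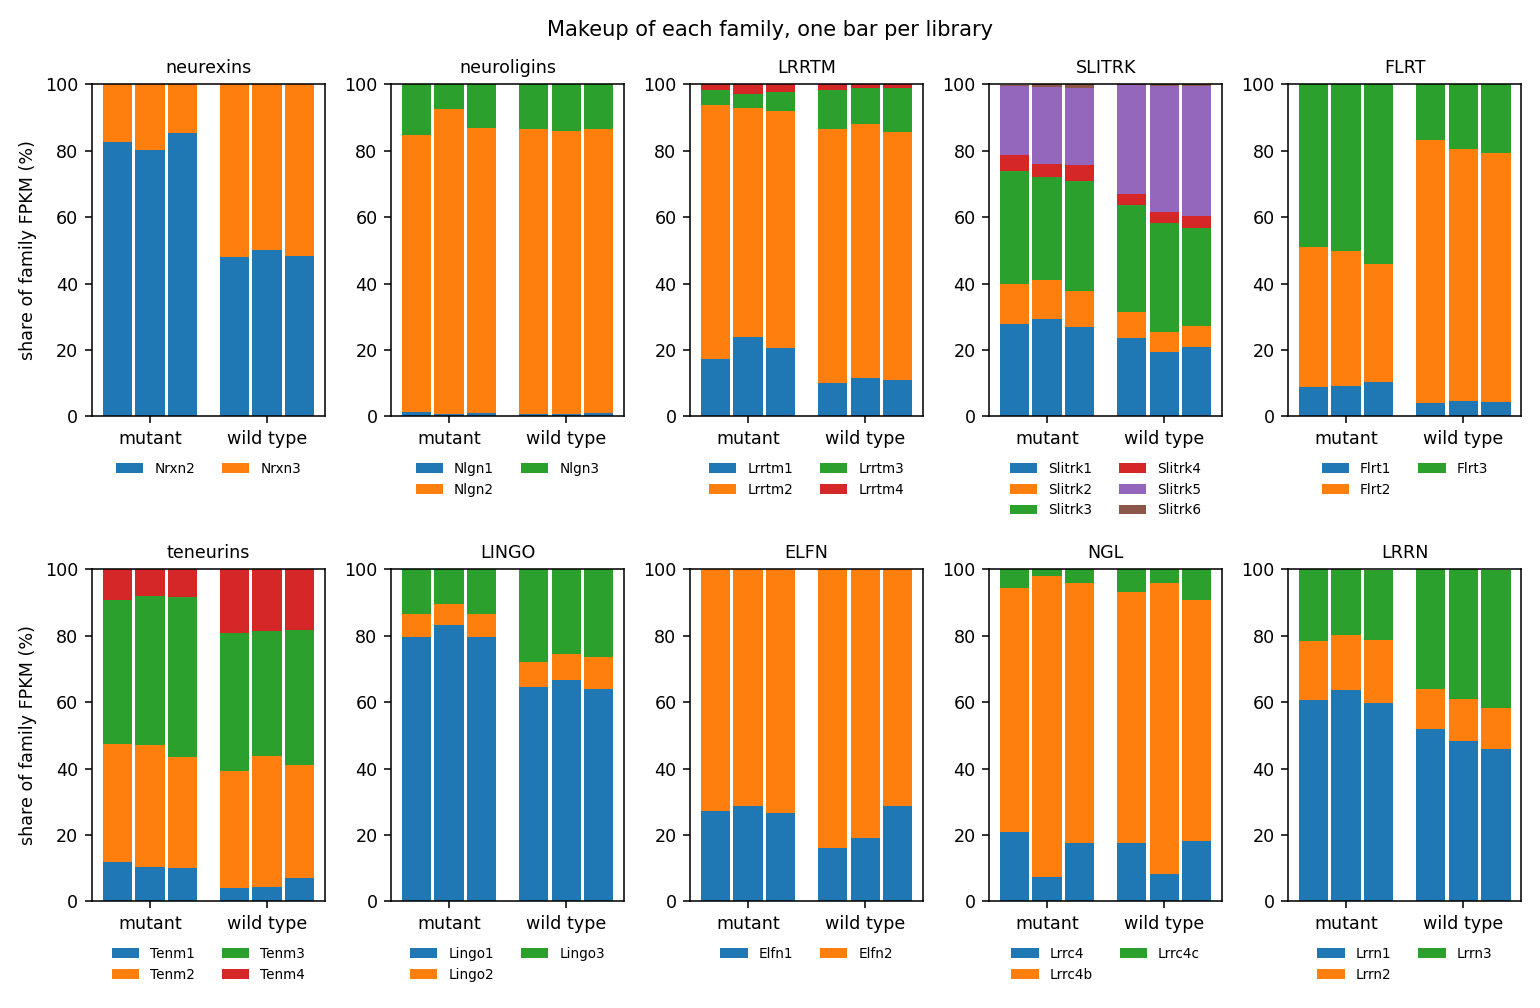
Share of each member in the summed FPKM of its family (%), with 1 stacked bar per library, mutant replicates 1 to 3 on the left and wild type replicates 1 to 3 on the right of each panel. Nrxn3, Flrt2, Tenm4, Lingo3, Lrrn3 and Slitrk5 take a smaller share in every mutant library than in any wild type library.

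By position, the members lie on 17 chromosomes. Of the 33 genes, 4 are on the X chromosome (Nlgn3, Slitrk2, Slitrk4 and Tenm1), and 0 of these were called with all 6 libraries, by edgeR with or without the Xist level as a factor or by DESeq2, where 24.0% of all tested genes were called by edgeR. In edgeR 0 of the 4 had an unadjusted p below 0.05, and the smallest adjusted p was 0.1699, for Slitrk2. That gene was called without wild type replicate 1, the Xist-high library of its group (adjusted p = 0.0442). The gene span was 6.0 to 1612 kb, with a median of 169.9 kb, for the 14 lowered members, and 5.4 to 906 kb, with a median of 37.3 kb, for the other 18 tested. A group of 7 members lies inside a protein-coding gene on the opposite strand: Lrrtm1, Lrrtm2 and Lrrtm3 inside the alpha-catenin genes Ctnna2, Ctnna1 and Ctnna3, Flrt1 and Flrt3 inside Macrod1 and Macrod2, Lrrc4 inside Snd1 and Lrrn3 inside Immp2l. Ctnna1 was at 186 ± 1.77 CPM in the mutant and 160 ± 8.46 CPM in wild type, called higher by 0.22 on the log2 scale while Lrrtm2 was lower. Macrod2 was at 23.4 ± 1.09 CPM in the mutant and 27.8 ± 2.00 CPM in wild type (−0.25, adjusted p = 0.0671) while Flrt3 was higher, and Ctnna3 and Immp2l had too few reads for the test. The sources used here do not state a strand setting for the counting. In GENCODE M21 the exons of 6 of the 7 share no base with those of the gene around them, and 95 bases of Lrrtm2, 1.58% of its exon bases, lie in exons of Ctnna1, where reads of the pair could be mixed.

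Of the tested known partners of these proteins 51.4% were called, against 50% of the tested members and 24.0% of all tested genes. The partner calls went in both directions. The lists were chosen with earlier results of these data known, so these rates only describe them. Of 77 listed genes 74 were tested, of which 20 were higher, 18 lower and 36 not called. That is 27.0% higher and 24.3% lower, where 11.2% of all tested genes were higher and 12.8% lower. The median log2 fold change was 0.05. The FLRT and teneurin receptors were mostly higher, 5 of 7 with 1 lower (median 0.68). Unc5c was at 34.3 ± 3.44 CPM in the mutant and 5.001 ± 1.44 CPM in wild type (log2 fold change 2.76, adjusted p = 2.87e-05), and Unc5a at 26.7 ± 1.01 CPM in the mutant and 8.92 ± 0.693 CPM in wild type (1.57, adjusted p = 1.58e-05). The latrophilin genes Adgrl2 and Adgrl3 rose by 0.68 and 0.60. The third latrophilin gene, Adgrl1, was the 1 called lower in the list, at 490 ± 13.7 CPM in the mutant and 582 ± 54.1 CPM in wild type (log2 fold change −0.25, adjusted p = 0.0369); it was named after its values were seen.

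Ligands on the other side of the synapse were changed too. Among netrin-G and glypican genes 3 of 6 were higher and 2 lower (median 0.36). Ntng2, the ligand of Lrrc4, was at 21.7 ± 3.11 CPM in the mutant and 6.46 ± 0.624 CPM in wild type, and Ntng1, the ligand of the lowered Lrrc4c, rose by 0.78 on the log2 scale (adjusted p = 0.00617). Gpc4, a glypican that binds Lrrtm4, was at 62.8 ± 2.33 CPM in the mutant and 21.6 ± 3.08 CPM in wild type (adjusted p = 3.35e-05), while Gpc2 fell by 0.37. Of the cerebellins and C1q-like genes, which bridge neurexins to postsynaptic receptors among other roles, 2 of 5 tested were higher and none lower (median 0.84). Cbln4 was at 7.26 ± 0.528 CPM in the mutant and 2.18 ± 0.576 CPM in wild type, and Cbln2, at 3.84 ± 0.656 CPM in the mutant and 2.17 ± 0.309 CPM in wild type, lost its call when mutant replicate 1 or 2 or wild type replicate 2 or 3 was left out (adjusted p of 0.0689 to 0.0837). Of the LAR type phosphatases, Ptprs and Ptprf were called higher by 0.23 and 0.17 and Ptprd was not; the calls were lost on leaving out mutant replicate 1 or 2 or wild type replicate 2 or 3 for Ptprs (adjusted p up to 0.0833), and any library but mutant replicate 1 for Ptprf (up to 0.140). With the replicate block neither was called (adjusted p = 0.0756 for Ptprs and 0.109 for Ptprf), and Ptprf was also lost without the filter on low counts (0.0633) and in DESeq2 (0.0657).

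The receptors of LINGO and ELFN proteins split. In the Nogo receptor complex, where 1 of 5 genes was higher and 2 were lower (median 0.11), Rtn4r fell to 5.40 ± 0.414 CPM in the mutant, against 9.41 ± 0.942 CPM in wild type, alongside its partner Lingo1, and Rtn4rl1 fell by 1.503 on the log2 scale. Rtn4rl2 rose to 1.56 ± 0.434 CPM in the mutant, against 0.325 ± 0.0376 CPM in wild type. Of the group III metabotropic receptors, 1 of 3 tested was higher and 1 lower (median −0.08): Grm4 was at 14.4 ± 0.705 CPM in the mutant and 36.8 ± 7.13 CPM in wild type, and Grm8 at 6.42 ± 0.526 CPM in the mutant and 1.03 ± 0.432 CPM in wild type. Among other organizers 4 of 21 tested were higher and 4 lower (median −0.05). Mdga1, whose product blocks neuroligins from binding neurexins, was at 155 ± 11.4 CPM in the mutant and 38.2 ± 5.37 CPM in wild type (log2 fold change 2.02, adjusted p = 8.54e-06). Mdga2, the other MDGA gene of the list, was called lower (log2 fold change −0.78, adjusted p = 0.00759). It was at 10.3 ± 1.72 CPM in the mutant and 17.6 ± 2.30 CPM in wild type, and was named after its values were seen. The calsyntenin gene Clstn2 rose by 1.18 and Igsf21, a ligand of neurexin-2, by 1.20, while Ntrk3, a receptor that also binds a presynaptic phosphatase, fell by 1.003.

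Of the scaffold genes 8 of 24 were lower and 2 higher (median −0.19). Dlg2, a postsynaptic density scaffold, was at 24.8 ± 3.37 CPM in the mutant and 71.6 ± 10.2 CPM in wild type (log2 fold change −1.53, adjusted p = 1.08e-04), and Lin7a and Apba1, of a complex that binds neurexin tails, fell by 1.07 and 0.58. Dlgap3, a scaffold known for its striatal function, moved the other way, at 149 ± 13.5 CPM in the mutant and 48.9 ± 1.78 CPM in wild type (1.60, adjusted p = 5.55e-06). The lists hold genes chosen for known binding, and nothing here measures binding or synapses.

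**Figure D5:**
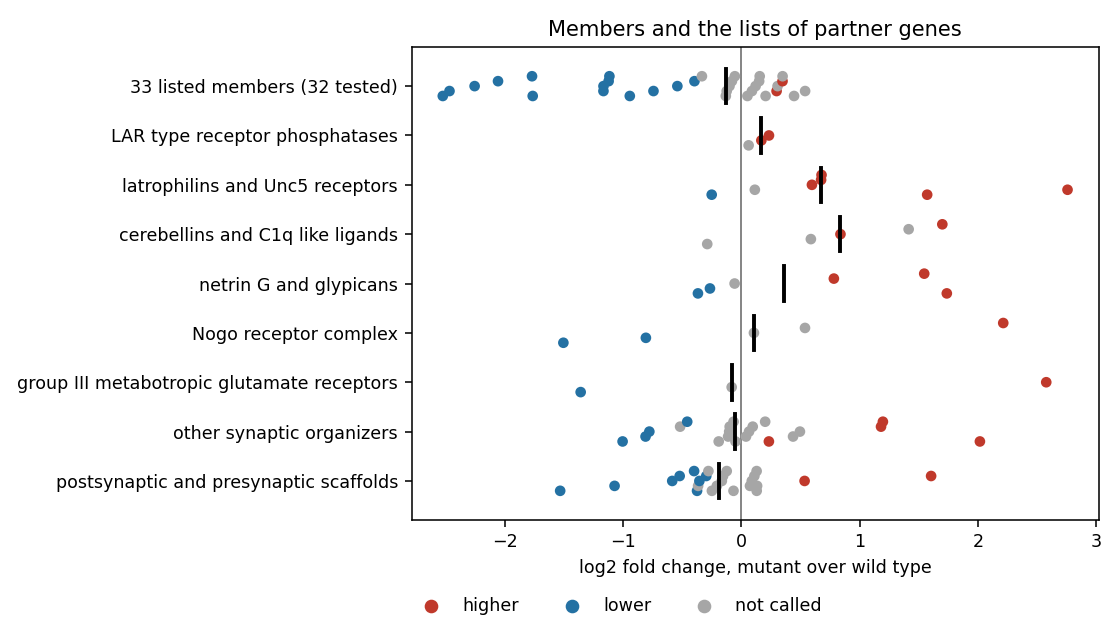
Log2 fold change, mutant over wild type, of each tested gene of the member list and of the 8 partner lists; blue is lower, red higher, grey not called, and the black bar is the list's median. The called members lie mainly below 0, and the median of all 32 tested is −0.13, while most called genes among latrophilins and Unc5 receptors lie above it.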

How the data were processed

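Gene counts of 3 Dlx1/2 mutant and 3 wild type LGE libraries were analysed from 1 table. The authors deposited raw read counts, FPKM and a p-value for each gene, per the file headers; the sources used here do not say which test gave it or whether it was adjusted. Builds GRCm38.p4 and mm10, and the tools edgeR, StringTie 1.3.0 and HISAT2 2.0.4, appear in the submitters' processing notes with no role. Library names in the labels tied each column to its sample; no replicate pair agreed within sampling noise (chi-square per degree of freedom 7.60 to 15.3).

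Counts were fitted over all genes in R 4.3.3 with edgeR 4.0.16 (filterByExpr, TMM, quasi-likelihood F test, two-sided, Benjamini-Hochberg adjusted p below 0.05), which kept 15326 of 21286 genes; members were read from that fit. Standard errors (SE) of log2 fold changes were taken from log2 CPM with 0.5 added to each count. FPKM as deposited served for levels between genes and shares within families, tested by exact permutation. Positions come from GENCODE M21 (GRCm38) by gene ID, promoters from RefSeq by symbol. The fit was tested on simulated counts: the share of false calls differed between draws, was near the nominal level on average with trended dispersion and somewhat above it with gene-wise dispersion, so an adjusted p close to the threshold is weak.

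The members, partner lists and markers were chosen with earlier results of these data known. All members could be named; of each partner list, up to 4 genes with the smallest adjusted p among those called. The alternatives were RLE scaling, no filter on low counts, DESeq2 1.42.0, a replicate block, leaving out each library, a 2-fold minimum, an adjusted p below 0.01, CPM in place of FPKM for shares, and, chosen after seeing the data, the Xist level as a factor and Nlgn3 summed with Gm21986.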

Additional observations from a re-analysis of the deposited data

How the results depend on the processing

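The 14 lowered members stayed called and lower under RLE scaling, no filter on low counts, DESeq2, the replicate block, each left-out library and the Xist level as a factor; a 2-fold minimum left 10 and an adjusted p below 0.01 left 13. The count of higher members, 2, was 1 without the filter, with DESeq2, with the block and below 0.01, 0 at 2-fold, and 1 to 2 on leaving out a library, Flrt3 being kept and Lrrn2 lost each time, with Lrrtm1, Slitrk2 or Elfn1 gained where the count stayed at 2. Over all genes 3673 calls became 1055 at 2-fold and 1991 below 0.01, and of the partner genes 11 higher and 5 lower were left at 2-fold. The sign turned for 6 uncalled members on leaving out a library: the log2 fold change ran from −0.0563 to 0.44 for Nlgn1, −0.16 to 0.0299 for Slitrk1, −0.17 to 0.061 for Slitrk4, −0.0391 to 0.12 for Flrt1, −0.29 to 0.26 for Tenm1 and −0.62 to 0.83 for Lrrc4b; the cause was not tested. Same-numbered libraries did not deviate together (Pearson's r across genes −0.176, 0.043 and −0.168). The highest r, 0.25, was between mutant replicate 3 and wild type replicate 1, both Xist-high. The libraries numbered 1 differ in Xist class between the groups, as do those numbered 3. These values therefore cannot tell whether the numbers pair libraries. With the replicate block 2681 genes, 14 lower members and 1 higher member were called. Of 140 alternative values for 20 shares 130 stayed within 1 SD and 10, all with CPM in place of FPKM, moved further without a change of sign. Depth limits Slitrk6 and the rare Lrrtm4 and Lingo3.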
